A study of Ovis aries with 32 samples.

Results

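The effect of dietary succinic acid was examined in the 8 RNA-seq libraries that the labels assign to hypothalamus, out of 32 libraries of Tan sheep from 4 tissues. The SA group held 4 libraries from male sheep fed a basal pelleted diet with succinic acid at 1% of the dry matter, and the CON group held 4 libraries from male sheep fed the same basal pellet without it. Per the design text, the sheep were 3 months old at the start, each diet was given to 12 sheep, and feeding lasted 60 days, preceded by an adaptation of 10 days. Tissue from 4 sheep per diet was sequenced, and no genotype, transgene or drug was part of the design. Expression is given in TPM, a unit corrected for transcript length and library total in which each value is a share of its own library. Of the 30722 genes in the table, 14126 reached 1 TPM in at least 4 of the 8 libraries and were tested.

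The hypothalamus is the region at the base of the brain that links nutrient and hormone signals to feeding, body temperature, daily rhythm and pituitary hormone release. Its arcuate neurons make the appetite-stimulating peptides NPY and AGRP and the appetite-suppressing products of POMC and CARTPT, and other hypothalamic neurons make orexin (HCRT), melanin-concentrating hormone (PMCH), vasopressin (AVP) and oxytocin (OXT). Succinate is an intermediate of the mitochondrial tricarboxylic acid cycle, formed by succinyl-CoA synthetase and oxidised by succinate dehydrogenase, which is also complex II of the respiratory chain. Outside the cell it is a ligand of the receptor SUCNR1, and inside the cell its accumulation inhibits the prolyl hydroxylases that mark HIF1A for degradation.

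The marker genes went against the tissue label. Of 16 listed transcription factors and enzymes of hypothalamic neurons, 4 reached 1 TPM in at least 4 libraries, the median member averaged 0.00688 TPM, and 5 members were listed at 0 in all 8 libraries. Of 20 hypothalamic peptide genes found, 11 reached 1 TPM in at least 4 libraries, and the median member averaged 1.03 TPM. Neurotensin (NTS) at 200.8 to 482.9 TPM and somatostatin (SST) at 90.8 to 218.2 TPM over the 8 libraries were abundant, and both are also made outside the hypothalamus. Vasopressin AVP was listed at 1.41, 0.29, 0 and 0.19 TPM in SA libraries 1 to 4, against 0.28, 0.72, 0.21 and 0.20 TPM in CON libraries 1 to 4. PMCH did not exceed 0.24 TPM in any of the 8 libraries, and OXT was not found by name and was not analysed here. Markers of striatal projection neurons, the principal cells of the caudate and putamen, were present throughout: all 26 of the members found reached 1 TPM in at least 4 libraries, and the median member averaged 140.2 TPM. In the libraries labelled pituitary the median member of this list averaged 9.21 TPM. PPP1R1B, a phosphatase inhibitor (DARPP-32) of dopamine-responsive neurons, stood at 1072 to 1973 TPM in SA and at 1154 to 1733 TPM in CON, and at 28.0 to 75.9 TPM in the 8 pituitary-labelled libraries. The libraries are therefore called hypothalamus-labelled in what follows.

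**Figure D1:**
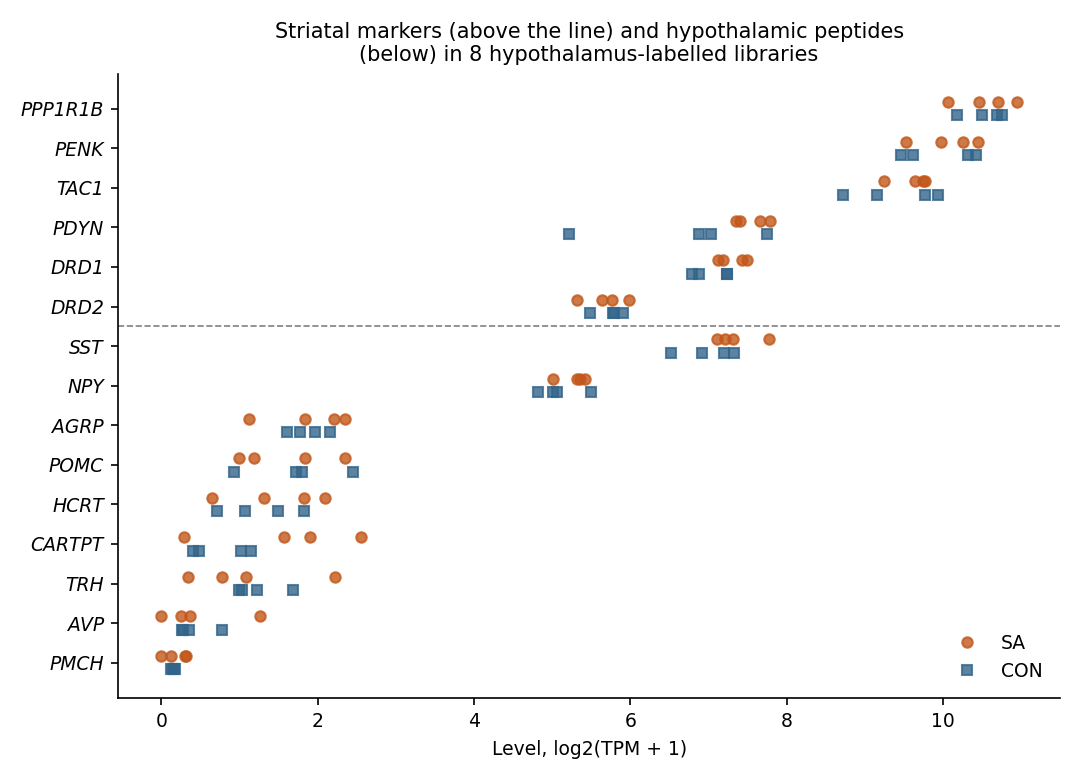
Levels of 6 striatal markers (above the dashed line) and 9 hypothalamic peptides (below it) in each of the 4 SA libraries (circles) and 4 CON libraries (squares), on the log2(TPM + 1) scale. The striatal markers lie far to the right of AGRP, POMC, HCRT, CARTPT, TRH, AVP and PMCH in both diets, whereas SST and NPY, which are also made by striatal interneurons, lie within or just below the range of the striatal markers.

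The 8 libraries differed from each other along 1 axis that did not follow the diets. The first principal component held 32.9% of the variance, with CON 3 at 42.0 and CON 4 at 30.8, whereas the 4 SA libraries lay between −28.1 and −1.32 and CON 1 and CON 2 at −17.7 and −15.9. CON 3 and CON 4 carried the most myelin transcripts: the summed level of 27 myelin and oligodendrocyte genes was 2818, 8611, 8386 and 5660.4 TPM in SA, against 6615, 6094, 28045 and 22435 TPM in CON. The SA values overlapped those of CON 1 and CON 2, and the 4-against-4 difference had an exact two-sided permutation p of 0.229 (adjusted p = 0.566 over 11 composition measures), where the smallest p the design allows is 0.0286. The other 10 measures, among them the mitochondrial share of TPM (48.9% to 54.1% in SA and 46.5% to 55.6% in CON), also overlapped between diets, with exact permutation p between 0.0571 and 0.971. The sum of striatal markers was lower in SA 3 (5497 TPM), SA 4 (6556), CON 3 (5694) and CON 4 (5174) than in SA 1 (8049), SA 2 (8445), CON 1 (7710.1) and CON 2 (8266). In these bulk samples fewer cells of a type and less RNA per cell cannot be told apart, and the part of these sums in the differences described below was not tested. Counts over all genes are given below also without CON 3 and CON 4, an alternative chosen after seeing the data. For a list described below whose median changed sign without CON 3 and CON 4, that median is given too.

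**Figure D2:**
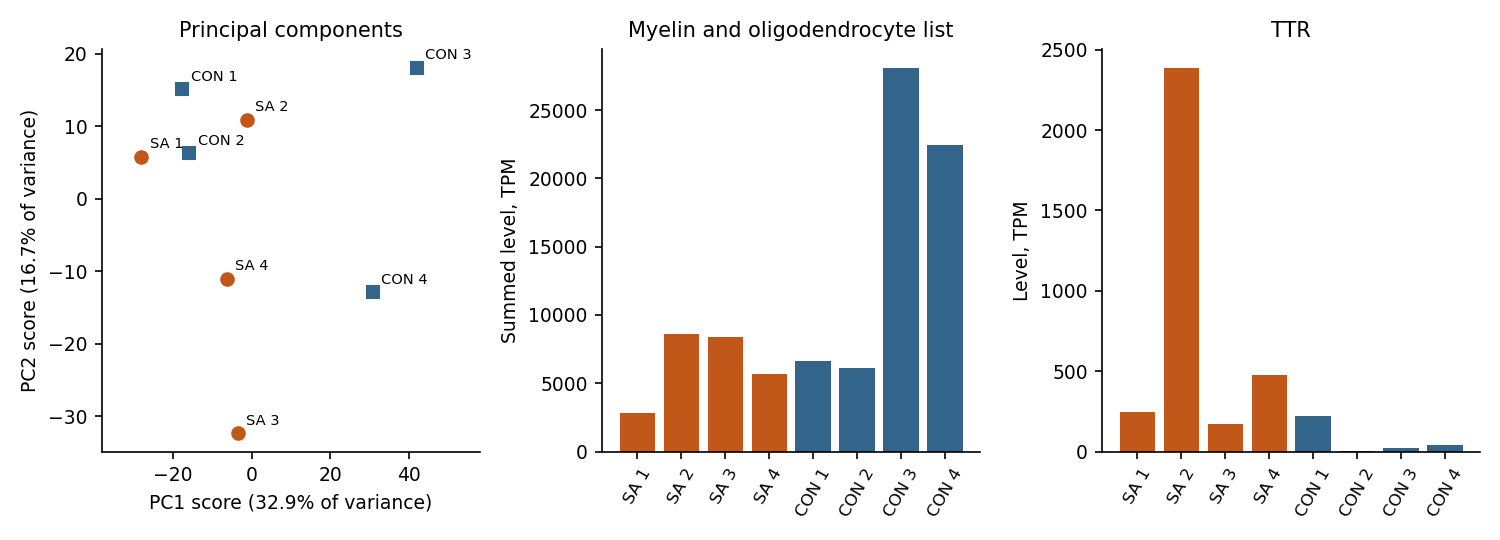
Left, scores of the 8 libraries on the first 2 principal components of log2(TPM + 1) over the tested genes (circles SA, squares CON). Middle and right, the summed TPM of the myelin and oligodendrocyte list and the TPM of TTR in each library, with SA libraries left of CON libraries; CON 3 and CON 4 hold the 2 highest myelin sums, and SA 2 holds 2384 TPM of TTR.

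The main comparison asked which genes differ between the SA and CON diets in this tissue. No gene passed the adjusted threshold: 0 of 14126 genes (0%) had an adjusted p under 0.05 with limma, and the smallest adjusted p was 0.276. At an unadjusted p under 0.05, 345 genes were higher in SA (2.44% of those tested) and 148 were lower (1.05%). All 4 SA libraries lay above all 4 CON libraries for 207 genes (1.47%) and below them for 70 genes (0.496%). The median change over all tested genes was 0.02 (SA − CON, log2 of TPM + 1, the scale of all changes given here), and 7805 genes (55.3%) had a mean change above 0. The count of calls was 2 without SA 2, 1 without CON 3 and 1 without both CON 3 and CON 4, and the number at an unadjusted p under 0.05 was 763 without CON 1 and 1076 without CON 2. The balance of directions at that unadjusted p turned round without CON 1, with 268 genes higher and 495 lower, and was 482 higher and 110 lower without CON 3 and CON 4. Over all tested genes 6571 had a mean change above 0 without CON 1 (median change −0.016) and 9637 without CON 3 and CON 4 (median change 0.07), against which the list counts without those libraries are to be read. The labels do not say how libraries relate to the 12 sheep beyond 4 sheep per diet, so the p-values measure the spread between these libraries.

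Among named genes with higher values in SA, PPM1E had the smallest p. PPM1E encodes a protein phosphatase of the PP2C family that is enriched in brain and dephosphorylates CaM kinases. It stood at 19.6, 28.5, 20.3 and 27.5 TPM in SA libraries 1 to 4, against 10.6, 5.81, 8.02 and 7.18 TPM in CON libraries 1 to 4. Every SA library was above every CON library, with SA 2 and SA 4 highest and CON 2 lowest. The means were 24.0 ± 4.68 TPM in SA and 7.89 ± 1.99 TPM in CON (SD, n = 4 each), a change of 1.50 (SE 0.19, limma adjusted p = 0.276), and leaving out any 1 library kept the change between 1.38 and 1.63. RefSeq places TRIM37 and a pseudogene over the PPM1E locus, and TRIM37 itself averaged 27.1 TPM in SA and 24.9 TPM in CON (change 0.13). Outside the brain labels, PPM1E was at 9.75 TPM in liver CON 3 and 16.2 TPM in tail fat CON 2. It did not exceed 0.05 TPM in any other liver or tail fat library, and the cause of this unevenness was not tested. Of the 15 tested members of the PP2C family list, PPM1E and PPM1L were the 2 whose SA libraries all exceeded CON, against 1.47% of all tested genes. The list was written with earlier results of these data known and holds the gene of smallest p. Its share is therefore no test of the family. PPM1L was at 18.0, 22.2, 6.92 and 6.98 TPM in SA and 4.04, 6.37, 5.68 and 5.56 TPM in CON. SA 1 and SA 2 were high for PPM1L and SA 3 and SA 4 were close to CON. The median change of the family was 0.04.

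The next genes in that direction were of low to moderate level. CSTL1, a cystatin-like gene, was at 1.50, 2.70, 1.63 and 1.37 TPM in SA, against 0.26, 0.35, 0.18 and 0.31 TPM in CON (change 1.11, SE 0.17, limma adjusted p = 0.688). The diets did not overlap, and CSTL1 met the expression filter only through its SA libraries. It was 1 of 3 genes called in the fit of all 32 libraries, whose spread includes the liver and tail fat libraries, where CSTL1 did not exceed 0.06 TPM. EMX2, a homeobox transcription factor of the developing forebrain, was at 11.7, 9.86, 5.38 and 7.97 TPM in SA and 3.80, 2.95, 2.58 and 3.57 TPM in CON. The change of EMX2 was 1.17 (SE 0.21, limma adjusted p = 0.947), with SA 1 highest and SA 3 nearest to CON. PLEKHF2, an endosomal phosphoinositide-binding protein, was at 14.3, 13.1, 16.3 and 13.2 TPM in SA and 10.2, 9.68, 9.45 and 9.18 TPM in CON (change 0.52). The other 6 of the 10 named genes of smallest p in this direction were TNNI3, a cardiac-type troponin (change 0.78); MTARC1, a mitochondrial amidoxime-reducing enzyme (0.69); ANGPT1, the ligand of the endothelial receptor TEK (0.54); GPR161, a ciliary receptor of the Hedgehog pathway (0.53); DHDH, a dihydrodiol dehydrogenase (0.51); and GAS8, a subunit of the ciliary dynein regulatory complex (0.46). In all 10 genes every SA library exceeded every CON library, which the choice by p favours, and 8 of the 10 had an adjusted p of 0.947. RefSeq places DCAF6 over GPR161 (DCAF6 change 0.10) and TULP2 over DHDH (TULP2 change −0.01). It also places genes for which no values are given here over ANGPT1, GAS8 and DHDH.

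Among named genes with lower values in SA, MMGT1 had the smallest p. MMGT1, a subunit of the complex that inserts proteins into the endoplasmic reticulum membrane, was at 10.9, 11.6, 12.0 and 17.6 TPM in SA, against 23.7, 23.1, 46.9 and 46.4 TPM in CON. The diets did not overlap for MMGT1, and CON 3 and CON 4 the libraries with the most myelin transcripts, were well above CON 1 and CON 2 (change −1.30, SE 0.27, limma adjusted p = 0.947). HPX, the heme-binding plasma protein hemopexin, was at 11.5, 12.7, 10.4 and 11.2 TPM in SA and 13.8, 16.2, 16.7 and 16.4 TPM in CON, again without overlap (change −0.43). CAVIN2, a coat protein of caveolae that is abundant in endothelium, was at 3.67, 3.61, 5.43 and 5.29 TPM in SA and 7.39, 7.82, 16.6 and 8.51 TPM in CON (change −0.96). VAMP1, a synaptic vesicle fusion protein, was at 25.6, 43.4, 21.2 and 32.0 TPM in SA and 46.0, 49.5, 75.6 and 55.0 TPM in CON (change −0.89), and its RefSeq neighbour on the same stretch, TAPBPL, had a change of −0.03. For CAVIN2 and VAMP1 the highest value was that of CON 3. H2AC6, a histone gene with near-identical copies that the counting could have mixed, overlapped between diets, with SA 3 at 1.22 TPM above CON 2 at 1.13 TPM (change −1.06). A signal recognition particle RNA, also of a multicopy family, was listed at 0 in 3 SA libraries and at 1.34 to 1.99 TPM in CON. The remaining named genes in this direction were FGFRL1 (−0.62), SOBP (−0.46), SERP1 (−0.43) and PNO1 (−0.38). FGFRL1 is a decoy receptor for fibroblast growth factors, SERP1 a stress-associated protein of the endoplasmic reticulum and PNO1 a ribosome assembly factor. RefSeq places a long noncoding RNA gene over FGFRL1 and another over HPX.

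**Figure D3:**
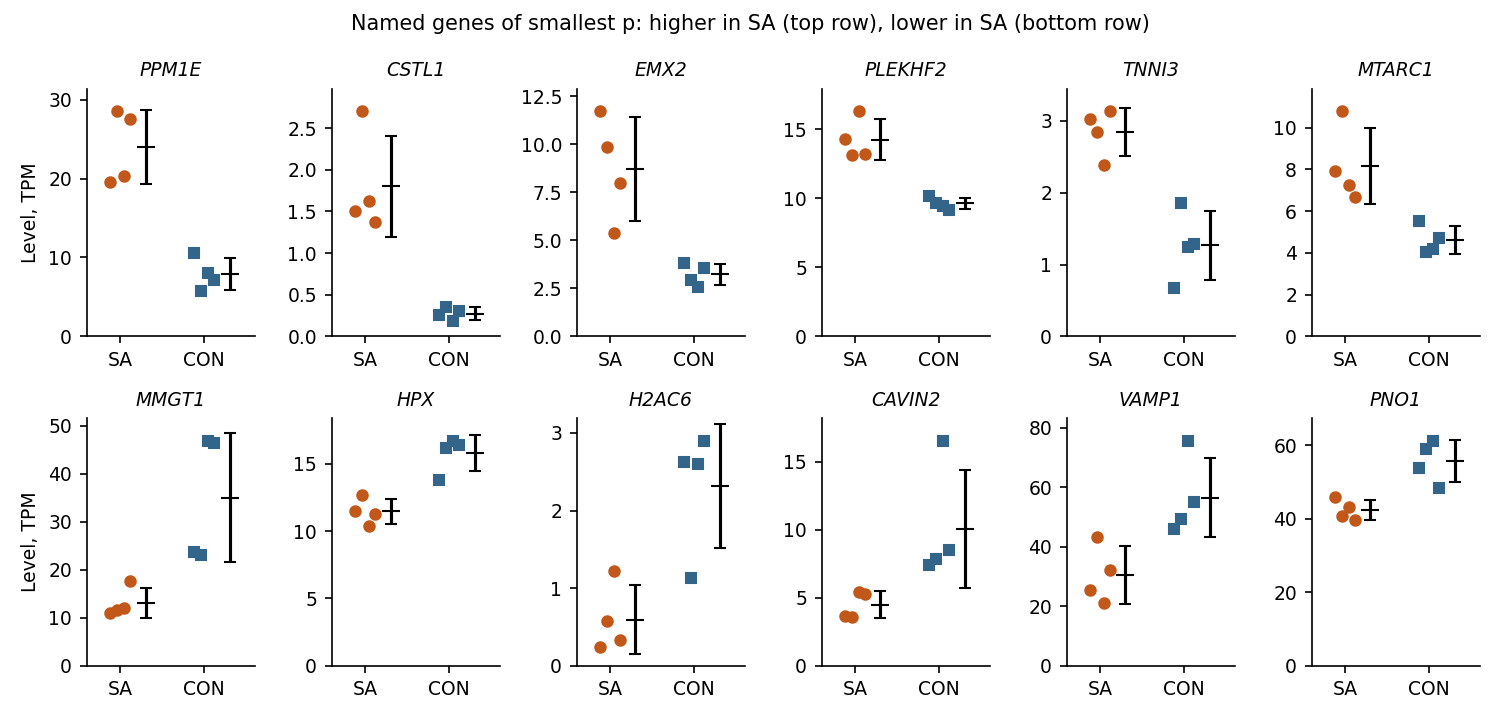
TPM of the 6 named genes of smallest p in each direction in the 4 SA libraries (circles, left) and 4 CON libraries (squares, right), each panel from 0, with the mean ± SD beside the points; the signal recognition particle RNA is left out of the lower row. Diets do not overlap in 11 of the 12 panels, and none of the 12 genes passed the adjusted threshold.

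Genes without a name in the table were the ones called when a library was left out, and they were chosen for description after their values were seen. ENSOARG00020008643 was at 189.8, 1.14, 201.6 and 184.5 TPM in SA and at 0, 0.15, 0 and 0 TPM in CON. SA 2 was close to CON for this gene, which met the expression filter only through its SA libraries. The change was 5.92 with all 8 libraries (limma adjusted p = 0.947), and the call without SA 2 left out the SA library that resembled CON. ENSOARG00020021716 was at 2.53, 10.8, 2.36 and 2.52 TPM in SA and at 49.7, 18.2, 49.8 and 36.2 TPM in CON. The diets did not overlap (change −2.97, limma adjusted p = 0.688), and the call without SA 2 again left out the SA library nearest to CON. ENSOARG00020021716 was also called with no library left out, in the fit of all 32 libraries (limma adjusted p = 0.0061). The spread of that fit includes the liver and tail fat libraries, where this gene was at 1.18 to 9.43 TPM. In the pituitary-labelled libraries it was at 31.25, 21.3, 4.39 and 5.75 TPM in SA and 28.7 to 63.6 TPM in CON, with SA 1 within the CON range. ENSOARG00020000945 was at 19.9, 23.6, 18.6 and 30.8 TPM in SA and at 1.18, 1.63, 30.6 and 0.45 TPM in CON, where CON 3 alone had a value like SA. Its change was 2.56 (limma adjusted p = 0.947), and it was the gene called without CON 3. Such values, near 0 in some libraries and high in others of the same diet, were also seen in RPL36, a ribosomal protein gene, at 143.4, 0.40, 319.6 and 166.3 TPM in SA and 0, 146.4, 0 and 375.2 TPM in CON.

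The effect of diet was compared with that in the 8 pituitary-labelled libraries, the other brain tissue of the series. No gene of 15152 (0%) had an adjusted p under 0.05 for the difference between the diet effects, and 230 (1.52%) had an unadjusted p under 0.05 with limma. For PPM1E the change was 1.50 in hypothalamus-labelled and −0.73 in pituitary-labelled libraries, a difference of 2.23 (limma, unadjusted p = 0.0013, adjusted p = 0.823). PPM1E was at 35.6, 28.1, 29.0 and 5.15 TPM in pituitary-labelled SA libraries 1 to 4. Pituitary-labelled CON libraries 1 to 4 were at 52.5, 26.3, 31.8 and 29.9 TPM. Only SA 4 lay below all of these CON values, and 68.2% of the TPM of that library was mitochondrial. CSTL1 had changes of 1.11 and 0.98 in the hypothalamus-labelled and the pituitary-labelled libraries, and HPX had changes of −0.43 and −0.47. In the pituitary-labelled libraries CSTL1 overlapped between diets, with SA 4 at 0.37 TPM and CON 4 at 0.38 TPM. EMX2 was there at 6.44, 18.7, 1.13 and 1.72 TPM in SA and at 5.29, 4.70, 4.70 and 5.43 TPM in CON. For EMX2, SA 1 and SA 2 lay above these CON values and SA 3 and SA 4 below them. MBP, myelin basic protein, had a change of −1.48 in hypothalamus-labelled and −0.01 in pituitary-labelled libraries (limma adjusted p of the difference 0.823). Since the pituitary-labelled libraries also lacked pituitary markers, with 1 of 12 members found reaching 1 TPM in at least 4 libraries, these comparisons are between labels.

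No peptide of the feeding circuits passed the threshold. NPY was at 38.8, 41.8, 31.3 and 40.1 TPM in SA and 44.3, 27.2, 32.5 and 31.3 TPM in CON, with the diets overlapping (change 0.18, limma adjusted p = 0.947). SST, the inhibitory peptide somatostatin, was at 158.1, 147.1, 137.1 and 218.2 TPM in SA and 145.3, 90.8, 159.2 and 120.2 TPM in CON (change 0.36), with SA 4 highest and CON 2 lowest. CARTPT was at 0.22, 1.98, 2.75 and 4.90 TPM in SA and 0.32, 0.40, 1.21 and 1.03 TPM in CON. SA 1 was the lowest of all 8 for CARTPT and the other 3 SA libraries were above CON (change 0.82, SE 0.44). AGRP averaged 2.87 ± 1.29 TPM in SA and 2.71 ± 0.604 TPM in CON, and POMC averaged 2.24 ± 1.42 TPM in SA and 2.54 ± 1.47 TPM in CON (SD, n = 4 each). HCRT averaged 1.98 ± 1.19 TPM in SA and 1.53 ± 0.840 TPM in CON, and TRH, thyrotropin-releasing hormone, 1.45 ± 1.53 TPM in SA and 1.40 ± 0.570 TPM in CON. The spread within each diet exceeded the difference between the means for these 4 peptides. NTS, neurotensin, was abundant at 225.4 to 443.3 TPM in SA and 200.8 to 482.9 TPM in CON. Of the 11 tested peptides, 8 were higher and 3 lower in SA with a median change of 0.18 (0.02 without SA 2), none passed, and over all tested genes 55.3% were higher.

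Receptors for feeding signals had higher means in 11 of 12 tested members (median change 0.30, and 0.11 without CON 3), against 55.3% of all tested genes. None passed the threshold. MC3R, a melanocortin receptor, was at 1.15, 0.58, 4.55 and 3.52 TPM in SA and 1.01, 0.64, 0.10 and 2.55 TPM in CON (change 0.68). NPY1R, a receptor of NPY, ranged from 8.88 to 10.8 TPM in SA and from 5.22 to 9.76 TPM in CON (change 0.29), and CON 3 was the lowest. OPRK1, the kappa opioid receptor, ranged from 19.5 to 46.0 TPM in SA and from 14.2 to 27.0 TPM in CON (0.42), and GHR, the growth hormone receptor, from 4.28 to 5.39 TPM in SA and from 2.75 to 5.19 TPM in CON (0.32). Without CON 3 and CON 4 the list had 7 members higher and 5 lower with a median of 0.09. In that setting 9637 of 14126 tested genes were higher, with a median of 0.07. Receptors that define hypothalamic responses to leptin, melanocortin and ghrelin were near 0: LEPR did not exceed 0.62 TPM, MC4R 0.72 TPM or GHSR 0.37 TPM in any library, and all 3 lay below the expression filter.

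All 26 tested striatal markers overlapped between diets. PPP1R1B was at 1661, 1973, 1072 and 1408 TPM in SA and 1651, 1733, 1446 and 1154 TPM in CON (change 0.01, SE 0.20). PENK, the enkephalin precursor of neurons that project to the external pallidum, was at 1220, 1400, 736 and 1005 TPM in SA and 1282, 1369, 706 and 782 TPM in CON. SA 3 and SA 4 were below SA 1 and SA 2 for PENK, as CON 3 and CON 4 were below CON 1 and CON 2. PDYN, the dynorphin precursor of neurons that project directly to the output nuclei, was at 163.2, 167.7, 219.6 and 201.3 TPM in SA and 116.7, 215.1, 36.2 and 130.4 TPM in CON (change 0.83, SE 0.46), where CON 3 was lowest, and without CON 3 the change was 0.33. TAC1, the substance P precursor, averaged 784 ± 121 TPM in SA and 711 ± 259 TPM in CON (SD, n = 4 each), and the dopamine receptor DRD1 averaged 158 ± 20.1 TPM in SA and 131 ± 21.5 TPM in CON (change 0.27). DRD2 had a change of −0.06 and the adenosine receptor ADORA2A, which shares its neurons, −0.27. Of 26 tested striatal markers 19 were higher and 7 lower in SA (median 0.10), whereas without CON 3 and CON 4 the counts were 7 and 19 (median −0.15).

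No member of the other neuronal lists passed the threshold. Synaptic genes had 20 members higher and 8 lower (median 0.08), against 12 higher and 16 lower (median −0.04) without CON 3 and CON 4. GAP43, a growth-cone protein, was at 294.1, 247.3, 368.3 and 341.8 TPM in SA and 256.9, 246.9, 184.0 and 258.4 TPM in CON (change 0.40). GABA and glutamate receptor subunits had 25 higher and 8 lower (median 0.11), against 11 higher and 22 lower (median −0.04) without CON 3 and CON 4. Among them GABRB1, a GABA-A receptor subunit, was at 23.5, 21.6, 26.4 and 22.9 TPM in SA and 18.1, 19.3, 16.9 and 21.0 TPM in CON (change 0.31, SE 0.10, limma adjusted p = 0.947). GABRB1 was the 1 of 33 tested members whose SA libraries all exceeded CON, against 1.47% of all tested genes. GAD2, a GABA-synthesising enzyme, averaged 119 ± 4.74 TPM in SA and 111 ± 9.92 TPM in CON (SD, n = 4 each). Interneuron markers had 9 higher and 4 lower (median 0.24, and 0.10 without CON 3), with CCK at 6.38 ± 1.47 TPM in SA and 4.53 ± 1.51 TPM in CON (SD, n = 4 each).

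No gene that forms, oxidises, carries or senses succinate passed the threshold. SUCNR1, the succinate receptor, was listed at 0.09, 0, 0 and 0.02 TPM in SA and at 0, 0, 0.02 and 0 TPM in CON, so it was near 0 in both diets and was not tested. SDHA, the flavoprotein subunit of succinate dehydrogenase, was at 83.6, 105.9, 77.9 and 93.1 TPM in SA and 76.6, 97.6, 103.1 and 87.4 TPM in CON (change −0.02, SE 0.13, limma adjusted p = 0.993). SDHB, the iron-sulfur subunit, averaged 102 ± 10.0 TPM in SA and 109 ± 7.24 TPM in CON (change −0.10), and the membrane anchors SDHC and SDHD had changes of 0.01 and −0.05. SDHAF2, which helps attach the flavin to SDHA, was 1 of 27 tested cycle genes whose SA libraries all exceeded CON, against 1.47% of all tested genes. It was at 77.5, 91.5, 75.3 and 78.1 TPM in SA and 67.7, 73.2, 70.2 and 73.5 TPM in CON (change 0.17, limma adjusted p = 0.947). SUCLA2, a subunit of succinyl-CoA synthetase, averaged 60.3 ± 6.60 TPM in SA and 64.3 ± 7.28 TPM in CON (SD, n = 4 each). Over the 27 tested genes of the tricarboxylic acid cycle 17 were higher and 10 lower (median 0.01). IDH1, the cytosolic isocitrate dehydrogenase, was highest in CON 4, at 12.9, 27.7, 23.1 and 31.9 TPM in SA and 23.5, 23.3, 37.3 and 90.9 TPM in CON.

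Carriers of succinate and the prolyl hydroxylase branch had lower means in SA in 6 of 9 tested members (median −0.13, and 0.02 without CON 3 and CON 4). SLC25A10, the mitochondrial dicarboxylate carrier, was at 8.12, 7.87, 7.95 and 7.93 TPM in SA and 8.86, 8.63, 9.77 and 8.16 TPM in CON. All 4 SA libraries were below CON, the nearest values being 8.12 TPM in SA and 8.16 TPM in CON (change −0.13, SE 0.09, limma adjusted p = 0.947). SLC25A10 was the 1 of 9 tested members whose SA libraries were all below CON, against 0.496% of all tested genes. The citrate carrier SLC13A5 and the dicarboxylate carrier SLC13A3 of the plasma membrane had changes of −0.35 and −0.42 and overlapped between diets. HIF1A averaged 42.8 ± 4.33 TPM in SA and 40.3 ± 8.10 TPM in CON (SD, n = 4 each). EGLN3, a prolyl hydroxylase and itself a HIF target, was at 4.89, 9.90, 2.76 and 5.37 TPM in SA and 5.13, 8.16, 25.2 and 9.15 TPM in CON (change −0.82, SE 0.46). Hypoxia targets had 9 members higher and 6 lower (median 0.04): LDHA, lactate dehydrogenase A, had a change of 0.25, whereas NDRG1, which is also a gene of myelinating cells, was at 38.4, 99.7, 95.2 and 65.7 TPM in SA and 58.4, 60.8, 316.7 and 238.7 TPM in CON. Glycolytic genes had 12 higher and 3 lower with a median of 0.06.

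Transcripts encoded by the mitochondrial genome showed 1 SA library with an uneven profile along that genome. Of 12 tested protein-coding members 7 were higher and 5 lower in SA (median 0.03, and −0.12 without CON 3 and CON 4), and ND6 was listed at 0 in all 8 libraries. ND1, a complex I subunit next to the ribosomal RNA genes, was at 16364, 4543, 16931 and 16382 TPM in SA and 18029, 15708, 14838 and 15350.2 TPM in CON. Only SA 2 stood apart, at 0.278 times the median of the other 7 libraries. The neighbouring 12S and 16S ribosomal RNAs were at 0.326 and 0.245 times that median in SA 2, and ND2, the next protein gene, at 0.638 times. COX1, the following protein gene, was at 1.03 times, and the other tested genes of the mitochondrial genome lay between 0.874 and 1.25 times. ND5 had the smallest p of the list, at 1591, 1606, 1684 and 1003 TPM in SA and 954, 1321, 711 and 1288 TPM in CON (change 0.48, limma adjusted p = 0.947). Nuclear genes of the respiratory chain had 13 members higher and 21 lower (median −0.04).

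**Figure D4:**
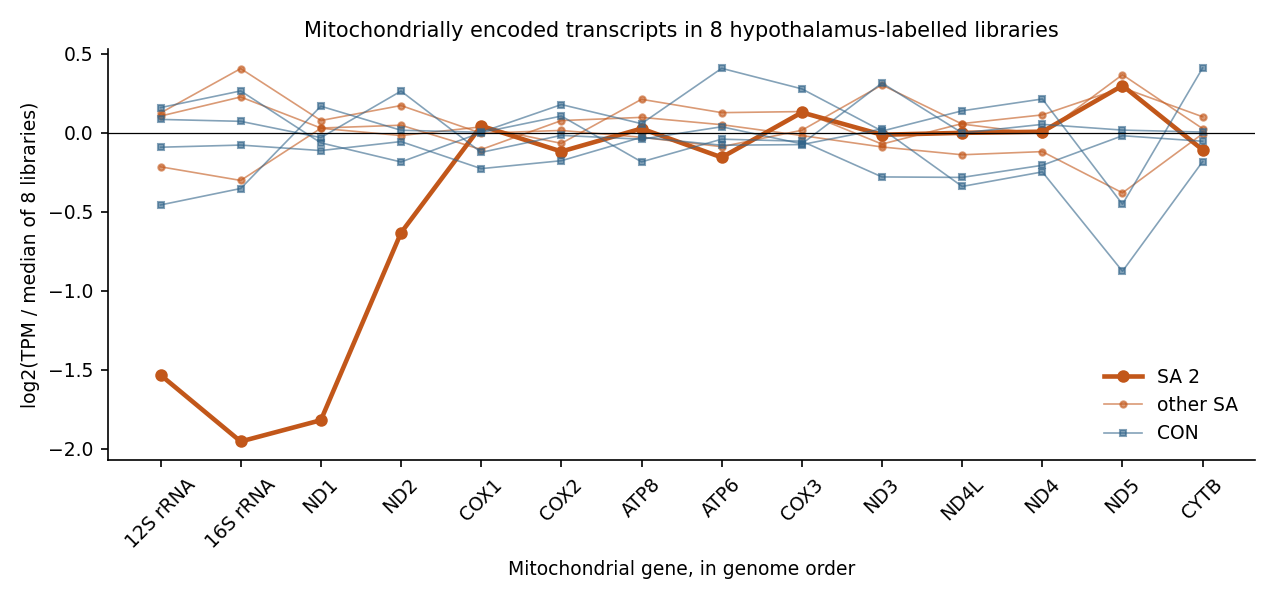
Level of each mitochondrially encoded transcript in each of the 8 libraries relative to the median of the 8, on a log2 scale, ordered along the vertebrate mitochondrial genome. SA 2 (thick line) is low for both ribosomal RNAs, ND1 and ND2 and joins the other 7 libraries from COX1 onward.

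Clock genes, which time daily rhythms, had higher means in SA in 17 of 21 tested members (median 0.09), against 55.3% of all tested genes. None passed. Without CON 3 and CON 4 the list had 14 higher and 7 lower (median 0.08), where 9637 of 14126 tested genes were higher (median 0.07). PER1 was at 11.6, 12.3, 11.1 and 11.6 TPM in SA and 9.97, 11.5, 9.19 and 10.9 TPM in CON (change 0.15, SE 0.10). PER2 was at 2.72, 2.43, 2.05 and 2.70 TPM in SA and 2.03, 2.19, 1.93 and 2.10 TPM in CON (change 0.18, SE 0.12). For both genes the diets overlapped through a single SA library. BMAL1 averaged 9.13 ± 0.986 TPM in SA and 9.19 ± 1.57 TPM in CON, and DBP, a clock output factor, 30.5 ± 8.02 TPM in SA and 36.9 ± 11.8 TPM in CON (SD, n = 4 each). PER3, chosen after its values were seen, ranged from 27.0 to 33.6 TPM in SA, against 24.9, 26.4, 61.0 and 58.5 TPM in CON, where CON 3 and CON 4 were high. The time of day at which each sheep was sampled is not given in the labels.

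Genes of neuronal activity and of the stress axis overlapped between diets. FOS, an immediate early gene, was at 7.86, 6.01, 4.57 and 5.40 TPM in SA and 5.00, 8.71, 3.79 and 3.41 TPM in CON (change 0.21), and 13 of 20 tested immediate early genes were higher (median 0.11). FKBP5, a glucocorticoid-induced chaperone, was at 49.8, 47.7, 57.0 and 57.9 TPM in SA and 14.4, 41.6, 54.1 and 43.5 TPM in CON. CON 1 was far below the other 7 libraries for FKBP5 (change 0.60, SE 0.35), and without CON 1 the change was the lowest of the leave-one-out range, 0.20. Glucocorticoid targets as a list had 5 members higher and 9 lower (median −0.14, and 0.13 without CON 3 and CON 4). Chaperones and endoplasmic reticulum stress genes had 5 higher and 10 lower (median −0.02), against 11 higher and 4 lower (median 0.05) without CON 3 and CON 4.

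Myelin genes had the largest list median in either direction, and it rested on CON 3 and CON 4. MBP, myelin basic protein, was at 820, 3010, 2609 and 1597 TPM in SA and 2801, 2385, 11797 and 7810.3 TPM in CON (change −1.48, SE 0.59, limma adjusted p = 0.947). SA 1 was lowest, and SA 2 and SA 3 were as high as CON 1 and CON 2. MOBP, a structural protein of central myelin, was at 279.7, 691.5, 788.8 and 548.0 TPM in SA and 501.8, 513.0, 2633 and 1871 TPM in CON (change −0.98). KLK6, an oligodendrocyte protease, was at 0.83, 19.3, 14.3 and 4.18 TPM in SA and 12.8, 12.8, 148.2 and 57.5 TPM in CON (change −2.28, SE 1.02). ASPA, which cleaves N-acetylaspartate in oligodendrocytes, was 1 of 27 members whose SA libraries were all below CON, against 0.496% of all tested genes. It was at 10.2, 11.4, 8.74 and 10.3 TPM in SA and 13.6, 12.9, 22.7 and 14.3 TPM in CON (change −0.56, SE 0.17, limma adjusted p = 0.947). Of 27 tested members 26 were lower in SA, with a median change of −0.84 and a leave-one-out range of −1.21 to −0.51. Without CON 3 and CON 4 together 21 were higher and 6 lower, with a median of 0.14. Oligodendrocyte precursor markers had 3 higher and 4 lower (median −0.04), against 6 higher and 1 lower (median 0.18) without CON 3 and CON 4.

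Markers of the ventricular lining and its choroid plexus had higher means in SA. TTR, transthyretin, the thyroid hormone carrier secreted by choroid plexus, was at 244.7, 2384, 174.2 and 479.3 TPM in SA and 221.8, 5.23, 23.1 and 39.1 TPM in CON. SA 2 was far above every other library, and CON 1 lay within the SA range (change 3.79, SE 1.19, limma adjusted p = 0.947). KCNJ13, a potassium channel of choroid plexus, was at 1.52, 7.59, 2.45 and 2.35 TPM in SA and 1.02, 1.86, 1.06 and 1.49 TPM in CON, and was also highest in SA 2. All 4 tested choroid plexus markers were higher (median 0.66, and 0.36 without SA 2). The summed list was at 262.4, 2423, 196.5 and 503.1 TPM in SA and 238.2, 20.6, 41.7 and 57.2 TPM in CON (exact permutation p = 0.0571, adjusted p = 0.566). All 10 tested ependymal markers were higher, with a median of 0.62, and without CON 3 and CON 4 they were 9 higher and 1 lower with a median of 0.50. The SD of the library medians of this list within a diet was 0.85. Its sum ranged from 35.8 to 93.8 TPM in SA and from 28.35 to 73.5 TPM in CON (exact permutation p = 0.314, adjusted p = 0.576). FOXJ1, the regulator of motile cilia, was at 5.50, 10.8, 1.22 and 4.17 TPM in SA and 0.75, 5.86, 0.23 and 4.11 TPM in CON. SA 2 was highest, and SA 3 was below CON 2 and CON 4. Markers of meningeal fibroblasts had 8 members higher and 2 lower (median 0.40), and 6 higher with a median of 0.10 without SA 4. PTGDS, prostaglandin D synthase, was 1 of the 2 lower, at 507, 627, 582 and 554 TPM in SA and 628, 815, 1069 and 774 TPM in CON (change −0.51). It was the 1 of 10 tested members whose SA libraries were all below CON, against 0.496% of all tested genes. How much tissue of the ventricle wall each library held was not tested.

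Most immune markers had higher means in SA, and none passed the threshold. CX3CR1, the microglial fractalkine receptor, was at 13.4, 12.7, 22.0 and 14.5 TPM in SA and 9.18, 10.4, 12.0 and 13.3 TPM in CON (change 0.43, SE 0.18, limma adjusted p = 0.947). C1QA, a complement component, was at 19.6, 22.0, 35.0 and 27.8 TPM in SA and 16.2, 11.2, 22.6 and 21.1 TPM in CON (change 0.54). SA 3 was the highest library for both, and the diets overlapped. Of 17 tested microglia and macrophage markers 15 were higher and 2 lower, against 55.3% higher over all tested genes. The median of these markers was 0.26, with 0.15 without SA 3 and 0.57 without CON 3 and CON 4. Their sum ranged from 298.9 to 523.9 TPM in SA and from 237.2 to 367.7 TPM in CON (exact permutation p = 0.257, adjusted p = 0.566). Interferon-stimulated genes had 17 higher and 1 lower (median 0.24, with a leave-one-out range of 0.07 to 0.40). MX2, an interferon-induced GTPase, was at 3.20, 2.11, 8.35 and 3.03 TPM in SA and 1.42, 1.90, 1.26 and 2.76 TPM in CON, and IRF9, part of the interferon signalling complex, was at 3.55, 4.69, 9.69 and 6.56 TPM in SA and 3.94, 4.59, 4.49 and 3.58 TPM in CON. SA 3 was the highest of 8 for MX2 and IRF9. The 7 tested inflammatory genes had a median of 0.14, with the cytokine IL1B at 2.33 to 4.73 TPM in SA and 1.76 to 4.72 TPM in CON.

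Endothelial markers had 4 members higher and 13 lower (median −0.11, and −0.01 without CON 3 and CON 4), with the receptor TIE1 at 3.73, 5.48, 4.58 and 4.59 TPM in SA and 5.31, 4.20, 10.3 and 8.88 TPM in CON. Smooth muscle and pericyte markers had 6 higher and 5 lower (median 0.11, and −0.12 without SA 4). Astrocyte markers had 10 higher and 9 lower (median 0.05), against 15 higher and 4 lower (median 0.06) without CON 3 and CON 4. GFAP, the astrocyte filament, was at 867, 1969, 949 and 2050.0 TPM in SA and 858, 1214, 2534 and 1072 TPM in CON. Ribosomal protein genes, a list taken from their names after the values were seen, had 9 members higher and 37 lower (median −0.11), whereas without CON 3 and CON 4 they had 45 higher and 1 lower (median 0.19). Lists of AMPK and mTOR signalling (12 higher, 9 lower, median 0.01) and thyroid hormone action (5 higher, 4 lower, median 0.05) lay near the median of all genes. No member of any list passed the adjusted threshold.

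**Figure D5:**
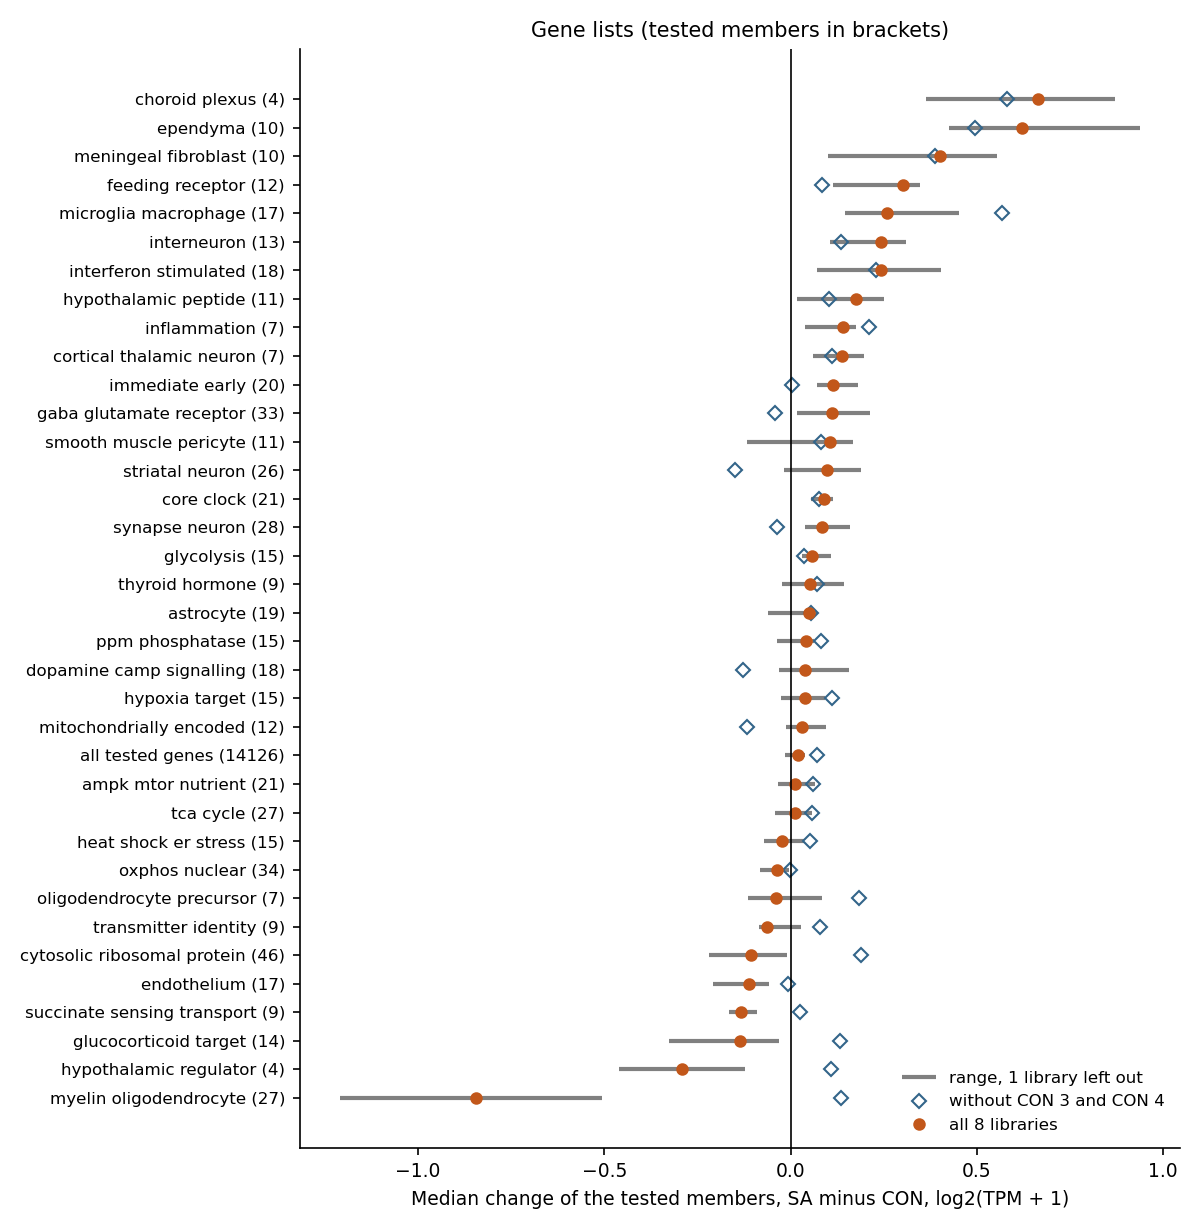
Median change of the tested members of each gene list, as SA − CON of log2(TPM + 1) values (circles), with the range when 1 library at a time was left out (grey bars) and the value without CON 3 and CON 4 (open diamonds). The myelin list lies at −0.84 with all libraries and at 0.14 without CON 3 and CON 4; the choroid plexus and ependyma lists stay above 0 in all these settings.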

How the data were processed

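Per the labels' protocols, RNA extracted with TRIzol was captured on oligo(dT) beads and made into stranded libraries. The tools named in the submitters' processing notes are fastp, HISAT2 and RSEM, and the sources used here do not give their versions, the genome build, the annotation or the strand setting. The deposited values of each library are read as TPM per gene from their column sums and the use of RSEM, since the table does not name its unit. TPM keeps no depth, so depth is unknown and no counting interval is given. The 8 library columns summed to between 961206 and 981425 TPM, and 8 columns of group means were not used.

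Values were analysed as log2(TPM + 1). The tested genes, those reaching 1 TPM in 4 or more libraries, went into limma 3.58.1 (R 4.3.3), with a mean trend and robust empirical Bayes moderation. Benjamini-Hochberg adjustment ran over every tested gene, p-values are two-sided, and the threshold was 0.05. Each change is SA − CON and understates the change of low genes. The comparison with pituitary-labelled libraries used an interaction contrast over 16 libraries. Sums per library were compared by exact permutation (scipy 1.17.1). The procedure was tested on simulated data.

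Members and lists were chosen with earlier results of these data known. The text names a panel of genes whatever their result (1 of them is not reported here), the 10 named genes of smallest p in each direction, and from each list up to 4 members of smallest p and, for marker lists, 3 of highest level; any further gene was picked once its values had been seen. The table gives no name for 13350 genes. A RefSeq table of sheep assembly ARS-UI_Ramb_v3.0 served only to look up overlapping genes. Alternatives covered the pseudocount, the filter, normalization, weights, the model, each library left out and the replicate block.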

Additional observations from a re-analysis of the deposited data

Results flagged for a closer look

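In 400 groups of 4 libraries (SA or CON, for 189 named genes and the composition measures), 29 values lay farther from the other 3 than 95% of groups of 4 would allow under a normal spread. Chance flags about 1 in 20 groups, and genes of 1 library are not independent of each other. Of these, 8 belonged to SA 2, 5 to SA 4, 4 each to SA 1, CON 2 and CON 3, 3 to CON 1 and 1 to CON 4.

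In SA 2, TTR stood at 2384 TPM against 174.2 to 479.3 TPM in the other SA libraries, the summed choroid plexus list at 2423 TPM, KCNJ13 at 7.59 TPM and SDHAF2 at 91.5 TPM, all above the rest. ND1 was below the rest at 4543 TPM, as was ENSOARG00020008643 at 1.14 TPM, while ENSOARG00020021716 at 10.8 TPM and the signal recognition particle RNA Metazoa_SRP at 1.08 TPM were above. In SA 4, MMGT1 (17.6 TPM), NKX2-1 (3.49), TCF7L2 (9.80) and SLC18A3 (3.83) were above the other SA libraries and ND5 (1003 TPM) was below. In SA 1, CALB1 (108.1 TPM), HIGD1B (1.89) and RSPH1 (27.7) were above and NDUFA2 (183.3) was below.

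In CON 1, TTR (221.8 TPM), the summed choroid plexus list (238.2) and Metazoa_SRP (1.99) were above the other CON libraries. In CON 2, H2AC6 (1.13 TPM) and NOTCH3 (2.84) were below, and ENO2 (333.8) and ENSOARG00020008643 (0.15, with the other 3 at 0) were above. In CON 3, CAVIN2 (16.6 TPM), ASPA (22.7) and ENSOARG00020000945 (30.6) were above and GAP43 (184.0) was below. In CON 4, NDUFA2 (231.0 TPM) was above.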

How the results depend on the processing

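No gene passed in any alternative fit except those listed here: 3 in the fit of all 32 libraries, 0 to 2 when 1 library was left out and 1 without CON 3 and CON 4 together. The 493 genes at an unadjusted p under 0.05 became 854 with no filter, 310 with a 5 TPM filter, 253 in the fit of all 32 libraries and 340 to 1076 leaving out 1 library. The 345 higher became 573, 222, 115 and 216 to 717 in that order. The 148 lower became 281 with no filter, 88 with a 5 TPM filter, 270 with quantile normalization, 265 with array weights and 114 to 495 leaving out 1 library. With the replicate number as a block, 0 genes passed and 691 had an unadjusted p under 0.05, 428 higher and 263 lower. The numbers did not pair the diets: deviations of same-numbered SA and CON libraries correlated at 0.29, −0.05, 0.00 and 0.04, and 1 of 4 libraries correlated best with its own number. For the difference from pituitary-labelled libraries, 0 genes passed in every alternative run, and the 230 at an unadjusted p under 0.05 became 441 with quantile normalization and 161 to 1622 leaving out 1 library, with the highest without pituitary-labelled SA 2.

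Without CON 3 and CON 4 together, medians moved to 0.14 for myelin, 0.11 for hypothalamic regulators, 0.57 for microglia, −0.12 for mitochondrially encoded genes, −0.041 for GABA and glutamate receptors and 0.19 for ribosomal proteins. Leaving out 1 library moved smooth muscle to between −0.12 and 0.17 and choroid plexus to between 0.36 and 0.87. With a 5 TPM filter the choroid plexus median became 1.93 and the inflammation median −0.29, and with no filter that of hypothalamic regulators became 0.0072, as other members were tested. Hypothalamic regulators had no member left at 5 TPM, nor mitochondrially encoded genes once that RNA was removed. The other list medians moved by less than 1 SD of the library medians under every alternative run. Without CON 3 and CON 4 the SA minus CON difference became −2.08 percentage points of mitochondrial share and, in summed TPM, 14.5 for myelin, 566 for astrocytes and −851 for striatal markers. With mitochondrial and ribosomal RNA removed it became 48.8 for astrocytes and 221.8 for synaptic genes. Leaving out 1 library, it ranged from −606 to 479 for astrocytes, from −86.4 to 972 for striatal markers, from −388 to 296 for synaptic genes and from −9.35 to 13.7 for smooth muscle.

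Of 46 single genes followed, 13 changed sign under some alternative, all with a limma adjusted p above 0.6 in every setting run. Without CON 3 and CON 4 MOBP became 0.084, TAC1 −0.25, PENK −0.32, PPP1R1B −0.18, FOS −0.15, TRH 0.10, SDHA 0.049 and AGRP −0.0019. AGRP became −0.028 with a pseudocount of 0.1 and −0.048 with quantile normalization. SDHA became 0.0058 with quantile normalization and 0.027 with mitochondrial and ribosomal RNA removed. BMAL1 became 0.00033 with a pseudocount of 0.1, 0.041 with that RNA removed and 0.0088 with array weights, which took TRH to 0.018. Leaving out 1 library gave −0.010 to 0.47 for HCRT, −0.40 to 0.11 for POMC, −0.15 to 0.26 for AGRP, −0.50 to 0.13 for TRH, −0.12 to 0.17 for PPP1R1B, −0.17 to 0.055 for DRD2, −0.068 to 0.27 for PENK, −0.021 to 0.38 for TAC1, −0.097 to 0.049 for SDHA, −0.045 to 0.19 for HIF1A and −0.099 to 0.085 for BMAL1. The cause of these moves was not tested. TPM does not record depth, so what depth limits is unknown.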

Other observations

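Library 2 of the SA group was set apart in the same way in all 4 tissues, a pattern noticed in these data and chosen after the values were seen. The ratio of ND1 to COX1 TPM was 0.0835 in SA 2 of the hypothalamus-labelled libraries, against 0.302 to 0.334 in SA 1, SA 3 and SA 4. In the pituitary-labelled libraries SA 2 had a ratio of 0.0877 and the remaining SA libraries had 0.254 to 0.355. In liver SA 2 had 0.0803 and the remaining SA libraries 0.225 to 0.276, and in tail fat SA 2 had 0.131 and the remaining SA libraries 0.273 to 0.464. The CON libraries of both brain labels lay between 0.284 and 0.341, whereas liver CON 1 (0.105), tail fat CON 1 (0.113) and tail fat CON 2 (0.0802) were also low.

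RPL36 followed the same numbers in SA. SA 2 was at 0.40, 0, 46.6 and 2.07 TPM in hypothalamus-labelled, pituitary-labelled, liver and tail fat libraries, and SA 1, SA 3 and SA 4 were between 143.4 and 2344 TPM in all 4 tissues. In CON, RPL36 was at 0, 146.4, 0 and 375.2 TPM in hypothalamus-labelled CON libraries 1 to 4 and at 211.2, 0, 169.3 and 312.0 TPM in pituitary-labelled ones. CON 4 was high under both labels, and no number was near 0 under both. In CON libraries 1 to 4 of liver RPL36 was at 0, 3.05, 304.2 and 1.81 TPM and in those of tail fat at 52.0, 0, 1506 and 3.83 TPM. CON 3 was high in both, and CON 1, CON 2 and CON 4 were far lower in both. The unnamed gene ENSOARG00020008643 was near 0 in SA 2 of all 4 tissues (1.14, 0, 0 and 0.66 TPM) and present in SA 3 (201.6, 221.0, 43.4 and 8.48 TPM) and SA 4 (184.5, 171.5, 66.6 and 51.7 TPM) of all 4. SA 1 varied, at 189.8 TPM in hypothalamus-labelled, 0.17 in pituitary-labelled, 0.15 in liver and 448.1 in tail fat libraries, and no CON library of any tissue exceeded 1.52 TPM. RPL36 has near-identical copies elsewhere in mammalian genomes, so its level is uncertain. The labels do not say whether a number marks the same sheep in different tissues.

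RPS3A, another ribosomal protein gene with many copies, was at 260.7, 112.0, 324.1 and 307.6 TPM in SA and 51.3, 164.3, 73.7 and 139.8 TPM in CON (change 1.26, SE 0.44, limma adjusted p = 0.947), in the opposite direction to 37 of the 46 tested ribosomal protein genes. NPY2R, an NPY receptor, lay below the expression filter and was at 1.19, 1.15, 1.32 and 0.92 TPM in SA and 0.65, 0.30, 0.36 and 0.29 TPM in CON, without overlap. Both were chosen after their values were seen.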
